A study of Mus musculus with 12 samples.

Results

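RNA levels of 10 genes were followed in mouse cumulus cells: Dusp4, Dusp5, Dusp6, Spry2, Spry4, Egr1, Fos, Fosl1, Cebpb and Phlda1. They are feedback inhibitors and immediate early targets of the ERK pathway and were chosen by name, with no threshold on their values. Of the 10, 8 were listed in at least 1 of the 6 libraries and 6 in every library, among 13318 genes listed in all. Cumulus cells are the granulosa-lineage cells around the oocyte. In 3 libraries they had received follicle-stimulating hormone (FSH) together with fetal bovine serum (FBS) over 18 hours, and in 3 they were labelled untreated, with no culture time given. Both groups came from Kunming mice, and the labels name granulosa cells of antral follicles as the cell type. FSH cannot be told apart from FBS, nor either of them from time in culture. The series' design text speaks of cumulus-oocyte complexes and of complexes stripped of their oocyte, and the labels do not say which kind gave each library.

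ERK is the last kinase of a relay that runs from growth factor receptors through RAS, RAF and MEK. When ERK is active, immediate early genes such as Fos and Egr1 are transcribed within minutes and without new protein synthesis, and their RNAs are short-lived. Feedback inhibitors follow: dual-specificity phosphatases remove the activating phosphates from ERK, and Sprouty proteins dampen the relay upstream of it. In the ovary, luteinizing hormone and FSH reach this pathway partly through EGF-like factors, and ERK activity in granulosa and cumulus cells is required for cumulus expansion and ovulation.

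Promoter sequence is shown for Dusp5 and Dusp6, the 2 tested members whose values lay higher after FSH and FBS in every library, and for Fos, which lay lower in every library. From the RefSeq table (GRCm38.p6), promoters of 5 of the 10 genes were used, the other 2 being Spry2 and Cebpb. Promoters of the remaining genes were not examined. Each sequence is the 250 bases before the RefSeq start, plus strand, 5′ to 3′, with matches in capitals. Searched on both strands were the CArG box, which serum response factor binds, the cAMP response element TGACGTCA and its core TGACGT, the AP-1 site TGANTCA and the EGR site GCGNGGGCG. The core lies within the full cAMP response element.
Dusp5, chr19:53528895-53529144: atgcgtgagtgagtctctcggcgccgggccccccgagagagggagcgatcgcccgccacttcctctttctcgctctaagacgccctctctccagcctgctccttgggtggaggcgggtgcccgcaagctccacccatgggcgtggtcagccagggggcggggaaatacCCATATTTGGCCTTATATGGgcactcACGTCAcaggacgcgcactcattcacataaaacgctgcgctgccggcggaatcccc
Dusp6, chr10:99262981-99263230: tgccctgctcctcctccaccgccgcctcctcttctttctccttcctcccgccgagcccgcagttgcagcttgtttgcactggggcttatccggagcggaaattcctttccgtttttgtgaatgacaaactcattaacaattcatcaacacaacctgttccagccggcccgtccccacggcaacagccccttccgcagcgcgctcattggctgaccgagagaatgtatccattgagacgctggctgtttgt
Fos, chr12:85473640-85473889: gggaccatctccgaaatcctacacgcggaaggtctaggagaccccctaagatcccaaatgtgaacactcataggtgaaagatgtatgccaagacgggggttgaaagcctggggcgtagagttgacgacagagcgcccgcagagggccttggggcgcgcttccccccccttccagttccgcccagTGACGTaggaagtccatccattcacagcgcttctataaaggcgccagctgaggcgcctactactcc

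The Dusp5 window held 2 adjoining CArG boxes, CCATATTTGG from base 82 before the start and CCTTATATGG from base 72, and a cAMP response element core on the minus strand from base 56, printed as ACGTCA. A CArG box was present in 1.47% of the 32851 RefSeq windows of the same length that were searched. The Fos window held 1 match, the core TGACGT from base 66 before the start, a sequence found in 6.47% of windows. The Dusp6 window held none of the searched letters. Bases further upstream than these 250 were not searched, so a site missing from a window may lie outside it. Full cAMP response elements, AP-1 sites and EGR sites occurred in 1.55%, 6.75% and 4.7% of windows and in none of these 3. The deposited tables name no genome build, but 98.98% of 12768 genes compared overlap their GRCm38.p6 position. In these tables the first exons of Dusp6 and Fos start at 99263231 and 85473890, the base after each printed window. That of Dusp5 starts at 53529109, inside the window.

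Values are FPKM, fragments per kilobase of transcript scaled to library size, a level per length that can be compared between genes. Libraries 1 and 2 of each group were far closer to each other than to library 3. The scaled median absolute deviation of their log2 ratio over 9022 genes was 0.18 and 0.22, against 0.61 to 0.82 for the other pairs within a group. They were averaged and counted as 1 sample, so means are given with n = 2 per group and p-values come from that fit. The labels do not say whether libraries came from separate animals or cultures. The p-values therefore reflect spread among these samples alone, and that spread may be technical. Sequencing depth is unknown. Inha, of the hormone inhibin, stood at 276.1 to 502.5 FPKM and Fshr, the FSH receptor, was listed in every library, as were 10 of 12 granulosa and cumulus markers. Among those 12, Cyp19a1 was listed in 2 libraries and Foxl2 in none. Foxl2 has no intron, and the tables list no gene whose first exon is also its last, so its absence says nothing about its level.

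None of the 6 tested members passed limma's test after FSH and FBS (adjusted p under 0.05). Among all 9022 genes tested, 1.68% passed as higher and 0.687% as lower. At an unadjusted limma p under 0.05 there were 2 members, Dusp5 and Dusp6, against 16.5% of all genes. In Dusp5 and Dusp6 the 3 libraries after FSH and FBS all lay above the 3 untreated ones, as in 29.4% of genes tested. In Fos and Phlda1 they all lay below, as in 9.54% of genes. Dusp4 and Egr1 overlapped. Since these are bulk libraries, fewer cells of a type and less RNA per cell cannot be told apart. The median log2 fold change of the 6 was -0.22, and that of all genes tested was 0.24. Relative to that median the members lay at 1.15 (Dusp6), 0.92 (Dusp5), -0.37 (Dusp4), -0.56 (Egr1), -0.95 (Fos) and -0.95 (Phlda1), each with the sign of its own estimate. The split of called genes, 152 higher and 62 lower, was 59 and 45 with libraries brought to equal sums, 49 and 41 with median-of-ratios scaling and 104 and 80 with quantile normalization, and under none of these did a member pass limma's test.

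**Figure D1:**
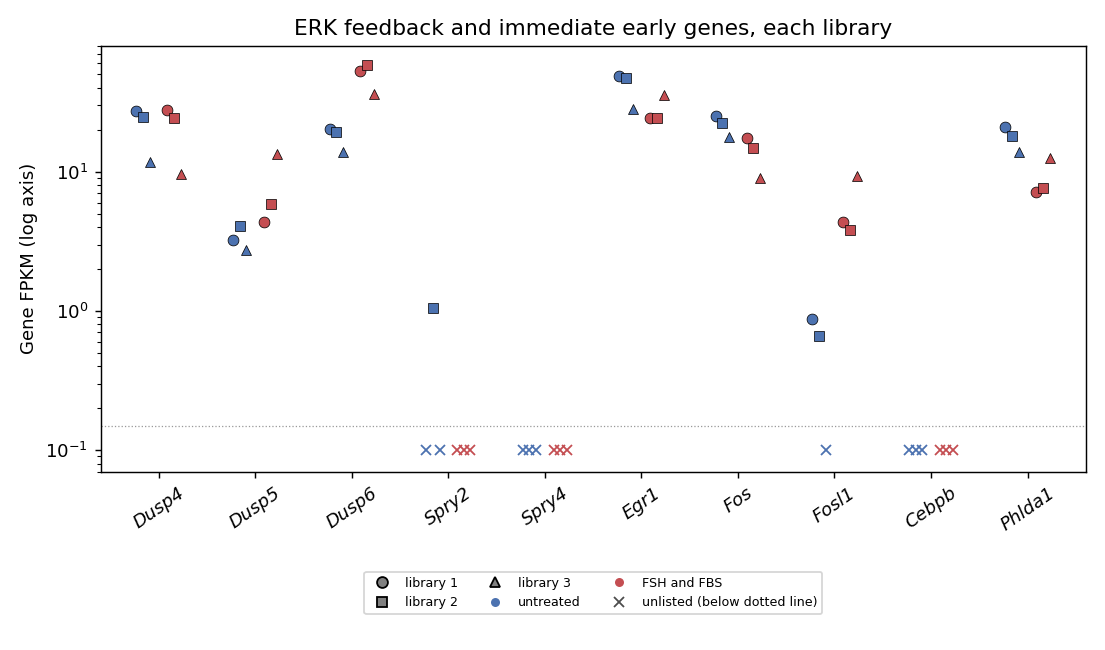
FPKM of each of the 10 genes (log axis) in the 3 untreated (blue) and 3 FSH and FBS (red) libraries, with crosses for libraries that do not list the gene. Dusp6 lies at 36.4 to 58.3 FPKM after FSH and FBS against 13.7 to 20.2, and Dusp4 follows the library number in both groups.

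Dusp6 encodes a cytoplasmic phosphatase specific for ERK and is a widely used readout of ERK activity. FSH and FBS libraries 1, 2 and 3 had 53.0, 58.3 and 36.4 FPKM, and the untreated ones had 20.2, 19.4 and 13.7 FPKM, in the library order kept throughout. The groups did not overlap, and the lowest value after FSH and FBS was above the highest untreated value. The means were 46.0 ± 13.6 against 16.8 ± 4.27 FPKM (SD, n = 2), a ratio of 2.74, with a log2 fold change on log2(FPKM + 1) of 1.39 (SE 0.38, 95% interval 0.51 to 2.28, limma adjusted p = 0.12). Within libraries 1 and 2 the difference was 1.45 and within library 3 it was 1.34. With all 6 libraries taken as separate replicates the limma adjusted p was 0.012, a fit in which 14.7% of all genes passed and Dusp6 was the 1 member to do so. Without FSH and FBS library 3 the log2 fold change was 1.69 (limma adjusted p = 0.025), and without untreated library 3 it was 1.15 (limma adjusted p = 0.60). Either omission leaves 1 sample in that group, which is then assumed to vary like the other group, here and for the genes below.

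Dusp5 encodes a nuclear phosphatase that dephosphorylates ERK and holds it in the nucleus. Its level after FSH and FBS was 4.35, 5.84 and 13.4 FPKM, and its untreated level was 3.25, 4.06 and 2.76 FPKM. The ranges did not overlap, but FSH and FBS library 1 lay just above untreated library 2, and FSH and FBS library 3 stood far above the rest. Means were 9.25 ± 5.88 against 3.21 ± 0.64 FPKM (SD, n = 2; log2 fold change 1.16, SE 0.48, 95% interval 0.063 to 2.27, limma adjusted p = 0.28). The difference was 0.39 within libraries 1 and 2 and 1.94 within library 3. Without FSH and FBS library 3, which leaves that group with 1 sample, it was 0.54 (limma adjusted p = 0.73).

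Dusp4, another nuclear phosphatase of ERK, stood at 27.9, 24.2 and 9.66 FPKM in treated libraries and at 27.4, 24.9 and 11.7 FPKM in untreated ones. Library 3 was low in both groups, and libraries 1 and 2 had nearly the same level in both. The means of 17.8 ± 11.6 and 18.9 ± 10.2 FPKM (SD, n = 2) differed by less than their spread, with a log2 fold change of -0.13 (SE 0.55, limma adjusted p = 0.94). The 95% interval of that difference ran from -1.39 to 1.13, so that a change of either direction is not excluded by these samples. Without FSH and FBS library 3 the log2 fold change was 0.54, and without untreated library 3 it was -0.68.

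Sprouty genes gave almost no values. Spry2, an inhibitor of receptor signalling to RAS, was listed in untreated library 2 alone, at 1.04 FPKM, with 1 first exon, 1 last exon and a cassette exon at chr14:105894881-105895085. Spry4, of the same family, was listed in none of the 6 libraries. For neither was a comparison made.

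Egr1 encodes a zinc-finger transcription factor that serum and growth factors induce. Its values were 24.5, 24.4 and 35.4 FPKM after FSH and FBS and 48.5, 47.0 and 28.3 FPKM in untreated cells. The groups overlapped, because library 3 was the highest of its group after FSH and FBS and the lowest among the untreated. Means were 29.9 ± 7.76 against 38.1 ± 13.7 FPKM (SD, n = 2; log2 fold change -0.31, SE 0.40, 95% interval -1.24 to 0.61, limma adjusted p = 0.74). The difference was -0.94 within libraries 1 and 2 and 0.31 within library 3, so that its direction turned. Without FSH and FBS library 3 the estimate was -0.57, and without untreated library 3 it was -0.68.

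Fos encodes the AP-1 subunit that pairs with JUN proteins. Values of 17.6, 14.9 and 9.04 FPKM after FSH and FBS stood against 25.3, 22.2 and 17.7 FPKM in untreated cells. The groups did not overlap, but FSH and FBS library 1 and untreated library 3 were nearly level. Means were 12.7 ± 5.11 against 20.7 ± 4.31 FPKM (SD, n = 2; log2 fold change -0.71, SE 0.40, 95% interval -1.63 to 0.22, limma adjusted p = 0.43). The difference had the same sign within libraries 1 and 2 (-0.52) and within library 3 (-0.89). Without FSH and FBS library 3 it was -0.32.

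Fosl1 encodes FRA-1, a FOS-related AP-1 subunit whose protein ERK stabilises. Treated libraries listed it at 4.33, 3.84 and 9.37 FPKM. Untreated libraries 1 and 2 listed it at 0.87 and 0.66 FPKM, and untreated library 3 did not list it. All 3 values after FSH and FBS lay above both listed untreated values. It was not tested, since the test took genes listed in every library. Fosl1 lay higher where Fos, of the same family, lay lower, and no test of the difference between these 2 genes was made.

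Phlda1 encodes a pleckstrin-homology-like protein that growth factors induce. Treated libraries had 7.19, 7.60 and 12.6 FPKM of it, and untreated libraries 20.95, 18.1 and 13.8 FPKM. The groups did not overlap, but the 2 libraries numbered 3 came close to each other. Means were 9.98 ± 3.66 against 16.7 ± 4.04 FPKM (SD, n = 2; log2 fold change -0.71, SE 0.40, 95% interval -1.62 to 0.21, limma adjusted p = 0.42). The difference was -1.29 within libraries 1 and 2 and -0.13 within library 3.

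Cebpb encodes C/EBP beta, a transcription factor that acts downstream of ERK in granulosa cells at ovulation. It was listed in none of the 6 libraries, and this says nothing about its level. In the deposited tables no gene had a first exon that was also its last exon, in any library, and Cebpb has no intron. Jun, Junb, Jund, Ier2, Cebpa and Cebpd, which also lack introns, were likewise listed in no library.

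**Figure D2:**
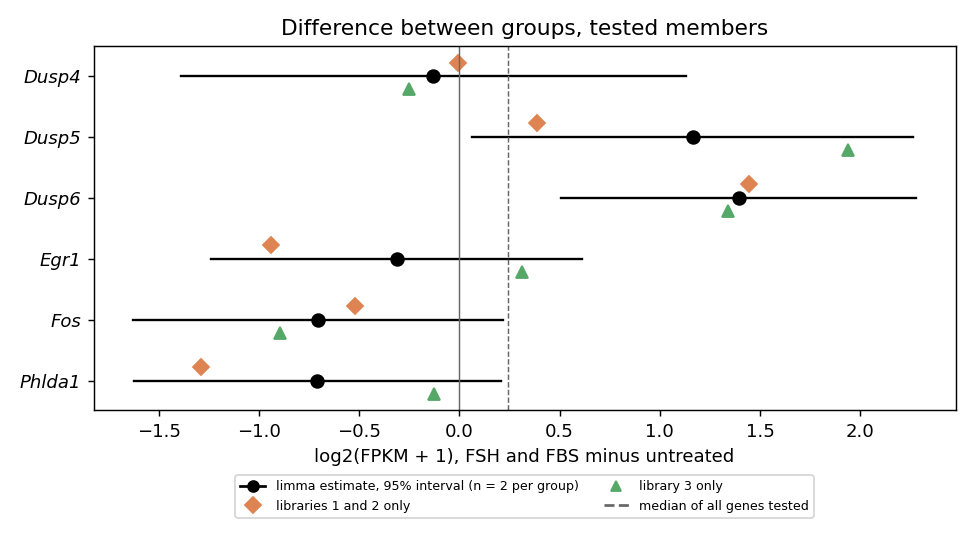
Differences on log2(FPKM + 1), FSH and FBS minus untreated, for the 6 tested members, with the limma estimate and its 95% interval (n = 2 per group), the difference within libraries 1 and 2 (diamonds) and that within library 3 (triangles). For Dusp6 the 3 values lie between 1.34 and 1.45, and for Egr1 the diamond and the triangle fall on either side of 0.

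Among the 6 tested members the order of levels differed between the groups. In untreated cells Egr1 stood first at a mean of 38.1 FPKM. Fos, Dusp4, Dusp6 and Phlda1 followed at 20.7, 18.9, 16.8 and 16.7 FPKM, none of them apart from the next by more than its SD. Dusp5 was last at 3.21 FPKM, below all of these in every library. After FSH and FBS Dusp6 stood first at 46.0 FPKM, above Egr1 in each library though by little in library 3 (36.4 against 35.4 FPKM). Dusp5, at 9.25 FPKM, and Phlda1, at 9.98 FPKM, then lay within their SD of each other. By mean FPKM over the 6 libraries, Egr1 and Dusp6 exceeded 84.3% and 83.7% of the genes tested, Dusp4 exceeded 72.1%, Fos 67.6%, Phlda1 57.7% and Dusp5 26.6%.

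In each of the 6 tested members, 1 first exon held at least 78.9% of the first-exon sum in every library that listed a first exon. Positions are as deposited, without a named build. Dusp6 had 1 first exon in every library, chr10:99263231-99264091. Untreated libraries 1 and 2 also listed a longer form of it, to 99264981, that held 10.7% and 11.1% of the first-exon sum. Dusp4 had a second first exon in FSH and FBS library 1 alone, ending at 34807927 in place of 34808173. In that library the form retaining the intron at chr8:34816592-34817124 was listed at 5.87 FPKM beside 21.98 FPKM for the spliced form, and no other library listed the retaining form. Fos showed, besides its first exon at chr12:85473890-85474180, a start inside the gene at chr12:85474691-85475186 in all 6 libraries. That start was at 3.29 FPKM in FSH and FBS library 1 and at 0.21 to 0.76 FPKM in the others. First exons other than the leading one made up 18.9%, 3.60% and 8.46% of the Fos first-exon sum after FSH and FBS and 2.52%, 1.13% and 3.83% in untreated cells. The 2 groups overlapped, and no test was made of exon use. For Dusp5, untreated library 3 listed the last exon, chr19:53540916-53542431, but no first exon. Egr1 had the same first exon, chr18:34859823-34861786, and the same last exon in all 6 libraries, and Phlda1 had 1 first exon in each but untreated library 1, where a second held 5.01% of the sum.

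Other genes of the pathway were taken from 8 lists with 81 genes, of which 66 were listed in some library and 43 were tested. None passed limma's test at an adjusted p under 0.05. At an unadjusted limma p under 0.05 there were 8, against 16.5% of all genes tested. The median log2 fold change of the 43 was 0.41, against 0.24 for all genes, with 18 genes whose FSH and FBS libraries all lay above the untreated ones and 2 whose libraries all lay below. For libraries all above or all below, the shares of all genes are the 29.4% and 9.54% given above.

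**Figure D3:**
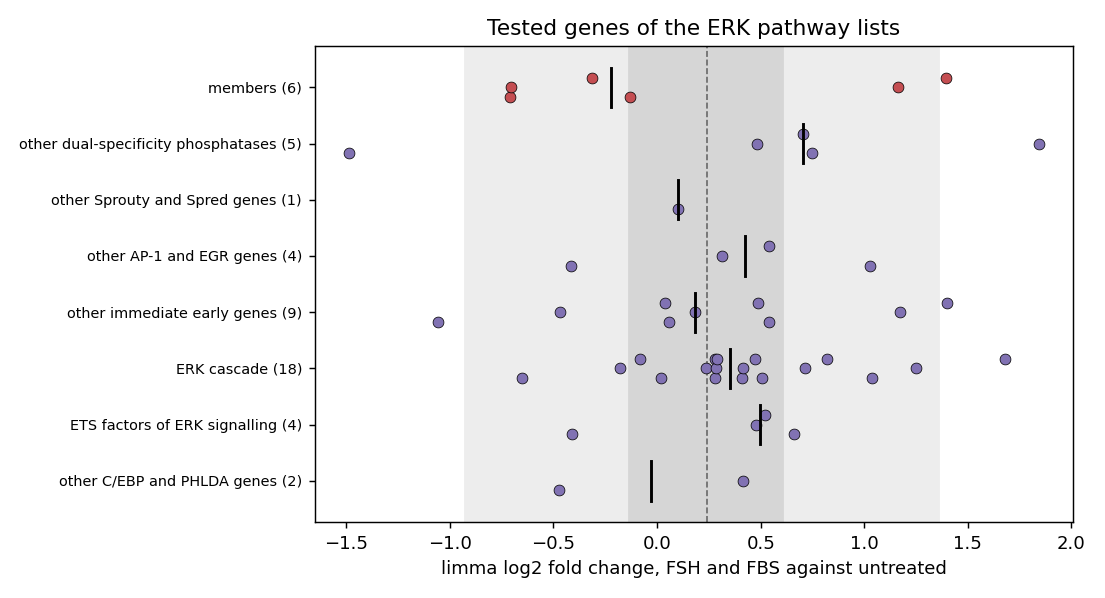
Limma log2 fold changes of the 6 tested members (red) and of the 43 tested genes of the other pathway lists (purple), 1 point per gene, with each list's median as a black bar. The dashed line marks the median of all genes at 0.24 and the grey bands hold the 25th to 75th percentile (-0.14 to 0.61) and the 5th to 95th percentile (-0.93 to 1.36). Most pathway genes lie within the bands, and the members lie on both sides of the line.

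Among the other dual-specificity phosphatases, none of 5 tested was called, and 4 of the 5 estimates were above 0. Dusp1, an immediate early phosphatase that acts on p38 and JNK as well as ERK, was the nearest to a call. Its treated values of 14.2, 13.4 and 14.5 FPKM stood against 4.71, 3.61 and 2.44 FPKM untreated (log2 fold change 1.84, SE 0.38, limma adjusted p = 0.052). The groups did not overlap. Dusp16 and Dusp9 had log2 fold changes of 0.70 and 0.48 (limma adjusted p = 0.62 and 0.58). Dusp9 did not overlap between groups, but Dusp16 did. The Dusp16 difference was -0.22 within libraries 1 and 2 and 1.63 within library 3, where the untreated value was 0.59 FPKM. Named after its values were seen, Dusp10, a phosphatase of p38 and JNK, had 1.14, 1.36 and 0.97 FPKM in treated and 4.98, 5.86 and 4.42 FPKM in untreated libraries (log2 fold change -1.49, SE 0.37, limma adjusted p = 0.093). Besides Dusp10, Braf, a RAF kinase gene also named after its values were seen, was the other pathway gene whose libraries after FSH and FBS all lay below (log2 fold change -0.65, limma adjusted p = 0.45).

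Of the Sprouty and Spred list 1 of 5 genes was tested, Spred1, an inhibitor of RAS activation, with a log2 fold change of 0.10 (limma adjusted p = 0.93). Of the AP-1 and EGR list 4 of 9 were tested. Fosl2, a further FOS-related subunit, was the most abundant, at 33.4 to 69.7 FPKM after FSH and FBS and 50.95 to 85.05 FPKM in untreated cells, and the groups overlapped. Egr2 was at 13.1, 10.7 and 17.4 FPKM against 9.64, 9.80 and 4.31 FPKM (log2 fold change 1.03, SE 0.44, limma adjusted p = 0.30), and Egr3 had a log2 fold change of 0.31 (limma adjusted p = 0.80). Thus Egr2 did not overlap between groups where Egr1 did, and the difference between the 2 genes was not tested.

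Of 16 other immediate early genes 9 were tested, and their median log2 fold change was 0.19. Ier3, an immediate early gene linked to cell survival, had 126.8, 127.2 and 275.3 FPKM in treated and 85.2, 86.5 and 57.7 FPKM in untreated libraries (log2 fold change 1.40, SE 0.48, limma adjusted p = 0.21). Myc, the growth regulator, was at 66.7, 73.4 and 66.0 FPKM against 44.2, 42.4 and 49.99 FPKM (log2 fold change 0.54, SE 0.35, limma adjusted p = 0.49). In both genes the groups did not overlap. Klf6 had a log2 fold change of 0.058 (limma adjusted p = 0.96). Klf4 and the orphan receptor gene Nr4a1, named after their values were seen, had log2 fold changes of 1.17 and -1.06 (limma adjusted p = 0.24 and 0.23). Klf4 did not overlap between groups. Nr4a1 did, at 10.9, 10.7 and 18.5 FPKM in treated and 43.6, 15.45 and 31.7 FPKM in untreated libraries. For Nr4a1 the untreated libraries 1 and 2, averaged as 1 sample, were thus far apart.

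All 22 genes of the ERK cascade were listed in some library and 18 were tested, with a median log2 fold change of 0.35 and none called. Mapk3, which encodes ERK1, had 32.9, 34.5 and 56.3 FPKM in treated and 45.3, 43.99 and 47.96 FPKM in untreated libraries (log2 fold change -0.085, limma adjusted p = 0.94). Map2k2, of the kinase MEK2, had a log2 fold change of 0.50 (limma adjusted p = 0.66). Groups overlapped in both. Map2k1, of MEK1, and Rps6ka2, of an RSK kinase that ERK activates, were named after their values were seen and did not overlap, with log2 fold changes of 1.25 and 1.68 (limma adjusted p = 0.14 and 0.097). Of 8 ETS factor genes 4 were tested, among them Elk4, Ets2 and Etv5 at 0.52, 0.66 and 0.48 (limma adjusted p = 0.65, 0.64 and 0.58). Elk4 and Ets2 overlapped between groups, and Etv5 did not. The Elk4 and Ets2 differences were -0.38 and -0.50 within libraries 1 and 2 and 1.41 and 1.81 within library 3. Of 6 further C/EBP and PHLDA genes Cebpz and Phlda3 were tested, at 0.41 and -0.47 (limma adjusted p = 0.60 and 0.63).

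Upstream of the receptor, none of the 6 EGF-like factor genes was listed in every library, so none was tested. Their summed FPKM was 22.7, 26.7 and 39.9 after FSH and FBS and 10.9, 8.56 and 1.24 in untreated cells, over the 6, 5 and 4 and the 5, 4 and 1 genes that each library listed. The value of 1.24 is Hbegf alone. Areg, Ereg and Btc, ligands of the ovulatory response, had all 3 values after FSH and FBS above every listed untreated value, and Hbegf lay the other way, at 0.71 and 0.67 FPKM in 2 libraries against 1.24 to 2.99 FPKM. Tgfa ran from 1.03 to 5.58 FPKM after FSH and FBS and was at 4.75 and 4.14 FPKM in untreated libraries 1 and 2. Egf was listed in FSH and FBS library 1 alone, at 0.074 FPKM.

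**Figure D4:**
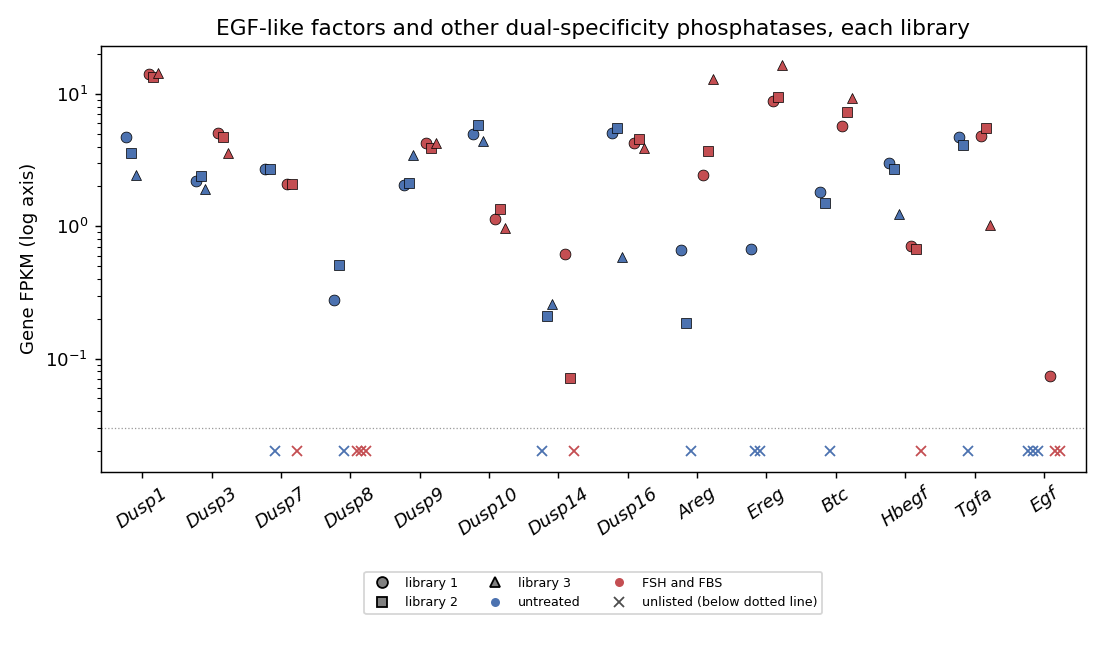
FPKM (log axis) of the listed genes among other dual-specificity phosphatases and EGF-like factors in each library, coloured by group as for the 10 genes, with crosses for libraries that do not list a gene. Dusp1, Areg, Ereg and Btc lie higher after FSH and FBS and Dusp10 and Hbegf lower, by the values listed.

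Summed markers of granulosa and cumulus cells, oocytes, theca and stroma, leukocytes and endothelium did not overlap between the groups. Their part in the results above was not tested. Such sums cover the markers a library lists and leave out the rest. Of 15 oocyte markers, 10 were listed in some library. They summed to 2.53, 3.12 and 12.5 FPKM after FSH and FBS and to 14.5 to 18.5 FPKM in untreated cells. The larger part of the sum in FSH and FBS libraries 1 and 2 was Kit, at 2.27 and 2.965 FPKM. Kit went the other way from the sum, at 0.60 to 1.72 FPKM in untreated cells, and FSH and FBS library 3 did not list it. FSH and FBS library 3 lay near the untreated libraries in the oocyte sum. Gdf9 was at 8.77 FPKM in that library, 0.26 and 0.16 FPKM in FSH and FBS libraries 1 and 2 and 4.16 to 6.06 FPKM in untreated cells. Zp1, Zp2, Bmp15, Figla and Mos were listed nowhere. As given for Foxl2 above, being unlisted says nothing about the level of a gene without introns. Theca and stroma markers, 7 of 10 listed, summed to 18.9 to 24.5 against 65.8 to 82.2 FPKM. Most of that was Acta2, the smooth muscle actin, itself called lower (log2 fold change -1.93, limma adjusted p = 0.030), while Lum, Pdgfra and Myh11 were listed nowhere. Leukocyte markers (6 of 10 listed, Cd3e, Itgam and Csf1r nowhere) summed to 2.96 to 7.19 against 8.97 to 12.5 FPKM. Endothelial markers (3 of 8 listed, Kdr and Tek nowhere) summed to 2.58 to 3.38 FPKM and to at most 0.45 FPKM in untreated libraries 1 and 2, while untreated library 3 listed none of them. Cdh5 alone made the sum in FSH and FBS libraries 2 and 3 and most of it in library 1. No untreated library listed Cdh5. Pecam1 was at 1.32 FPKM in FSH and FBS library 1 and 0.44 FPKM in untreated library 2, and Vwf was listed in untreated libraries 1 and 2 only. The highest erythroid sum (5 of 6 listed) was 1.92 FPKM, and the groups overlapped. Heat shock genes, 4 of 7 listed, summed to 219.4 to 240.5 against 177.7 to 213.6 FPKM. Granulosa and cumulus markers, 11 of 12 listed, summed to 693.7 to 1035 FPKM after FSH and FBS against 1342 to 1481 FPKM in untreated cells. Most of that was Gja1, at 240.4 to 447.7 against 709 to 994.7 FPKM, and Inha, at 276.1 to 282.1 against 349.7 to 502.5 FPKM. The sum therefore follows these genes and does not give the direction of the list. Of the 10 tested, 5 lay lower in every library after FSH and FBS, Gja1 and Inha among them. The 3 that lay higher were Amh, Nr5a2 and Hsd17b1. In that list 1 gene was called, Wt1, a transcription factor of immature granulosa cells, which was lower after FSH and FBS (log2 fold change -2.56, limma adjusted p = 0.029).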

How the data were processed

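RNA from cumulus cells was sequenced in 3 libraries with FSH and FBS and 3 untreated libraries, and small-RNA libraries were not used here. Per the file headers, a deposited table has 1 row for each first or last exon, skipped or included exon or kept intron of an assembled gene, with its FPKM. The submitters' processing notes name HISAT2 2.0.1 as a tool. Which assembler, filters and genome build the authors used is not given in the sources used here. Of 12768 genes compared, 98.98% overlapped their GRCm38.p6 RefSeq position. With FPKM and no counts, depth is unknown and no counting interval is given.

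For each gene, FPKM were summed over first exons and over last exons, and the larger sum was taken, on the strand with most signal, and an unlisted gene was missing, not 0. Symbols came from the supplied names table (13281 of 13318 genes; Spry3 had no identifier in it). Groups were compared with limma 3.58.1 (R 4.3.3, intensity trend) on log2(FPKM + 1), two-sided, Benjamini-Hochberg over 9022 genes (a value in each of the 6 libraries, mean of 1 FPKM or more), after averaging libraries 1 and 2; the fit was tested on simulated data. Fold changes on this scale understate those of low genes. An exact permutation test of 3 against 3 libraries cannot go below 0.1 and was not used. The members and lists were chosen with earlier results of these data known. Named are the 10 members, per other list any called gene and the 3 with the highest mean FPKM among those tested, listed EGF-like factors, Mapk3, and others where stated. A gene that the rule also names is not reported here. Tried were 20 alternatives, including other scalings, pseudocounts, filters, exon sums, the replicate block and leaving out each library; 2 (libraries 1 and 2 only, library 3 only) were added after seeing the data.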

Additional observations from a re-analysis of the deposited data

How the results depend on the processing

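The number of members called was 0 under the lead fit and stayed 0 under every pseudocount, filter, scaling, exon sum and strand setting tried, though a gene that does not pass is not shown to be unchanged. It was 1 (Dusp6) with all 6 libraries as separate replicates, where 973 genes were higher and 350 lower in place of 152 and 62. With the replicate block it was 2 on 2 samples per group (Dusp5 and Dusp6; 1040 higher, 407 lower) and 2 on all 6 libraries (Dusp6 and Fos; 1516 and 584). The numbers are not said to mark shared animals or batches, and same-numbered samples deviated together (r = 0.51 across genes, which are not independent, over 2 samples per group). Equal sums left 59 genes higher, median of ratios 49 higher and 41 lower, and first exon sums 42 and 21, where Dusp5 was not tested. Leaving out 1 library gave 42 to 253 higher, 33 to 131 lower and 0 to 1 members; the lowest counts were without untreated library 3, the highest without FSH and FBS library 3. The Dusp4 log2 fold change ranged from -0.68 to 0.54 over the libraries left out and was above 0 without FSH and FBS library 3. That of Egr1 was 0.31 within library 3. The cause was not tested in any of these. Dusp5, Dusp6, Egr1, Fos and Phlda1 kept the sign of their log2 fold change under each alternative that tested them, the exception being Egr1 within library 3, a setting added after seeing the data. Genes near or under 1 FPKM, such as Fosl1 in untreated cells, are limited most by the unknown depth.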
